A study of Thunnus thynnus with 30 samples.

Results

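Gene expression in high DHA larvae was set against that in medium DHA larvae of Atlantic bluefin tuna (Thunnus thynnus) at 15 days post-hatch (dph). The comparison held 6 of the 26 libraries of the deposited count table, 3 high DHA and 3 medium DHA libraries, chosen by their column names, which carry age, DHA level and sample number. All were RNA sequencing libraries of wild-type whole larvae, so RNA of all organs was measured together. High DHA larvae ate rotifers (Brachionus rotundiformis, a small live prey) that held 10.9 mg docosahexaenoic acid (DHA) per g dry weight, raised on an enrichment with 32% DHA of total fatty acids. Medium DHA larvae ate rotifers with 3.6 mg DHA per g dry weight, raised on a 15% preparation. Low DHA larvae, used here only for context, ate rotifers with 2 mg DHA per g dry weight, raised on a 5.5% preparation. The medium and low preparations were dilutions of the 32% preparation, and what else changed with dilution is not given in the sources used here. Feeding ran from 2 to 15 dph with 3 tanks per treatment. The labels do not say how many larvae made 1 sample or which tank each came from. Gene p-values rest on the spread between libraries within groups, estimated over all 26 libraries. That spread may be technical in part.

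DHA is a long-chain omega-3 fatty acid that builds up in the phospholipids of brain and retina, and marine fish larvae take most of it from prey because they make little themselves. In mammals, polyunsaturated fatty acids also act on gene control: they dampen SREBP transcription factors, which drive sterol and fatty acid synthesis, and bind PPAR receptors, which govern fat use and storage. The larval stage studied here is one of fast growth, when muscle, skeleton, gut, skin and sense organs are being built at the same time.

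The 6 libraries held 15149303 to 17167308 counts each, and 7292 genes were tested after 3 of 7295 rows had been removed for low counts. Levels are CPM, counts relative to library size, scaled by TMM, a correction for differences in RNA make-up, and can be compared only within a gene. Summed over all genes tested, they were 876100, 897800 and 916500 CPM in high DHA, against 972500, 992500 and 952000 CPM in medium DHA. These sums are fixed by the TMM factors, on average 1.11 in high and 1.03 in medium DHA. They do not measure total expression. The summed levels of gene lists given below are to be read beside that gap. In a principal component analysis of the 9 libraries of 15 dph, the first component (35.5% of the variance) placed the high DHA libraries between -22.4 and -12.3 and the medium DHA libraries between 9.48 and 12.1. High DHA replicate 2 lay farthest out, at -22.4, and the low DHA libraries lay between -0.929 and 12. The libraries also differed in a length score, the mean log2 CPM of 36 very long genes minus that of 146 short respiratory chain and ribosomal protein genes. This score was -3.01 ± 0.09 in high DHA and -3.46 ± 0.09 in medium DHA (SD, n = 3 each), a gap of 0.45 with no overlap. An exact two-sided permutation test gave p = 0.1, the smallest that 3 against 3 libraries allow. The cause of the score difference was not tested. Marker lists of gut, liver, pancreas, muscle, skeleton, skin, nerve, eye and blood cells were all detected at summed levels of at least 359.7 CPM. In such bulk samples, fewer cells of a type and less RNA per cell cannot be told apart.

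Between high and medium DHA at 15 dph, 1234 of 7292 genes (16.9%) changed at an adjusted p under 0.05, with 572 (7.84%) higher and 662 (9.08%) lower in high DHA. Adjusted p-values throughout are from edgeR's quasi-likelihood F-test with Benjamini-Hochberg adjustment over all genes tested. Most differences were small: the median size among changed genes was 0.49 on the log2 scale, 841 were under 1.5-fold, and 65 reached 2-fold, 34 of them higher and 31 lower in high DHA. The 3 high and 3 medium DHA libraries did not overlap in 1179 of the changed genes, against 39.9% of all genes tested. Upper-quartile scaling moved the median of all genes to -0.05, from -0.01, and gave 488 higher and 933 lower genes, so that 34.3% of the changed genes were higher, against 46.4% with TMM. Leaving out high DHA replicate 2 reduced the count to 439 (239 higher and 200 lower). Leaving out medium DHA replicate 1 or 2 gave 716 and 755. When the fit included the length score, 834 genes (11.4%) passed, 379 higher (5.2%) and 455 lower (6.24%), and 638 of these were among the 1234.

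**Figure D1:**
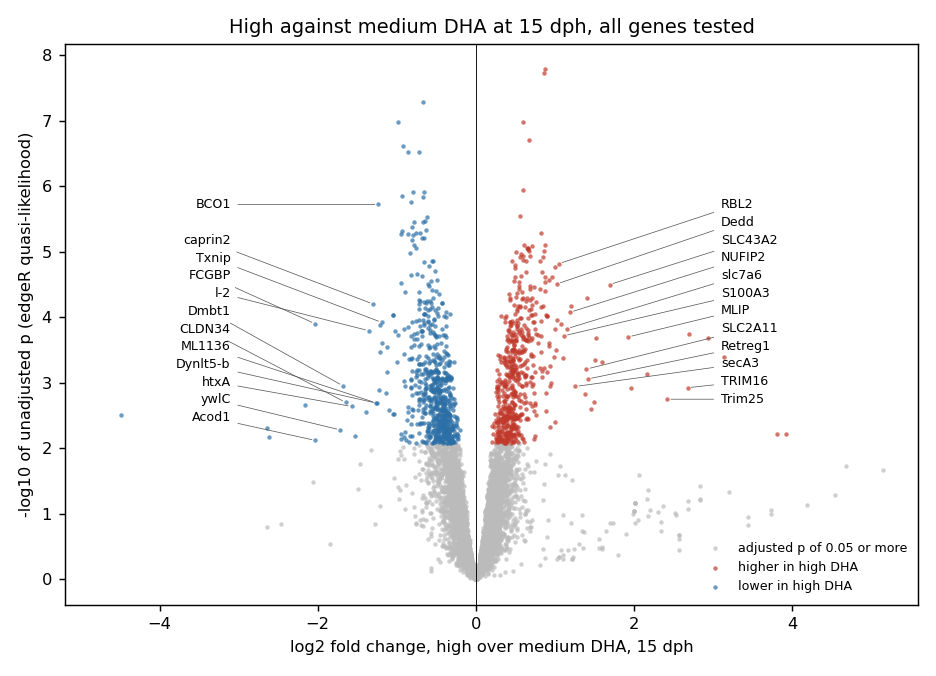
Each point is 1 of the 7292 genes tested, with the log2 fold change of high over medium DHA at 15 dph on the horizontal axis and the -log10 of the unadjusted edgeR p on the vertical axis. Red points (572) passed as higher in high DHA and blue points (662) as lower; names mark the 12 largest rises and 12 largest falls with a mean of at least 5 CPM and no overlap between libraries, and points farther out fell short of these limits.

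Among changed genes with a mean of at least 5 CPM and no overlap between groups, TRIM16 and Trim25 had the largest rises in high DHA. They are tripartite motif genes of a large family whose other copies can share reads, so their levels are uncertain. TRIM16 had 315, 425 and 86.7 CPM in high DHA libraries, against 47.9, 32.9 and 48 CPM in medium DHA libraries. All 3 high DHA libraries lay above the medium ones, but replicate 3 stood far below the other 2, and TRIM16 rose by 2.68 ± 0.70 (SE, adjusted p = 0.015) on the log2 scale. Trim25 rose by 2.42 ± 0.66 with the same low replicate, and neither passed without high DHA replicate 2 or without medium DHA replicate 2. Trim25 was also lost without replicate 1 of either group. SLC43A2, which carries large neutral amino acids such as leucine across membranes, had 97.5, 187 and 60.1 CPM in high DHA libraries, against 31.9, 35.2 and 39.5 CPM in medium DHA libraries. The groups did not overlap, the highest library was again high DHA replicate 2, and SLC43A2 rose by 1.69 ± 0.33 (SE, adjusted p = 0.0028).

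Transporters, an autophagy receptor and a cell cycle repressor were among the other top rises. The amino acid exchanger gene slc7a6 rose by 1.15 ± 0.25 (SE, adjusted p = 0.0051), and SLC2A11, of the sugar transporter family, rose by 1.40 ± 0.35 (SE, adjusted p = 0.011). Retreg1, whose protein marks endoplasmic reticulum for breakdown by autophagy, had 24.7, 65.7 and 22.9 CPM in high DHA libraries, against 13.2, 13.9 and 15.2 CPM in medium DHA libraries. Its rise of 1.42 ± 0.37 rested on replicate 2, without which it was 0.75 and did not pass. MLIP, a lamin-binding gene of muscle, rose by 1.93 ± 0.43 (SE, adjusted p = 0.0056) and did not pass without that library, where it stood at 1.14. RBL2, a retinoblastoma family member that holds cells out of the cycle, had 52.1, 88.4 and 77.1 CPM in high DHA libraries, against 30, 35 and 40 CPM in medium DHA libraries. Every high DHA library lay above every medium one, and RBL2 rose by 1.05 ± 0.19 (SE, adjusted p = 0.0019). NUFIP2, an RNA-binding protein gene, rose by 1.19 ± 0.25, S100A3, a calcium-binding gene of epithelia, by 1.11 ± 0.25, and Dedd, of the death effector domain family, by 1.03 ± 0.20. The row named secA3 rose by 1.26 ± 0.34. SLC2A11 did not pass without medium DHA replicate 2. secA3 did not pass in 3 of the 6 fits that left out 1 library.

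By the same rule, FCGBP and Acod1 had the largest falls in high DHA. FCGBP, a mucus gel protein, had 2.85, 1.39 and 8.47 CPM in high DHA libraries, against 26.4, 11.9 and 14 CPM in medium DHA libraries. The groups did not overlap, and FCGBP changed by -2.03 ± 0.43 (SE, adjusted p = 0.0048). Dmbt1, a secreted scavenger receptor of mucosal linings, fell by 1.68 on the log2 scale (adjusted p = 0.014), and CLDN34, a tight junction claudin, by 1.65 (adjusted p = 0.02). Acod1, which makes itaconate in activated macrophages, had 1.96, 4.35 and 2.48 CPM in high DHA libraries, against 8.9, 5.11 and 21.6 CPM in medium DHA libraries. Its groups did not overlap, but its medium DHA libraries varied widely, and its fall (-2.03 ± 0.69 SE, adjusted p = 0.047) was lost in 5 of the 6 fits that left out 1 library. Low DHA libraries averaged 9.22 ± 9.56 CPM for Acod1 (SD, n = 3). Dmbt1 did not pass without medium DHA replicate 3 or high DHA replicate 1. CLDN34 did not pass in 3 of the 6 fits that left out 1 library.

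BCO1, which splits beta-carotene to make retinal, had 11.9, 9.34 and 9.52 CPM in high DHA libraries, against 24.2, 24.6 and 23.3 CPM in medium DHA libraries. That was a gap far wider than the spread within either group, and BCO1 changed by -1.23 ± 0.19 (SE, adjusted p = 0.00086). Txnip, a brake on glucose uptake and on thioredoxin, had 7.05, 5.92 and 9.74 CPM in high DHA libraries, against 19.1, 15.3 and 17.5 CPM in medium DHA libraries. Its groups were also well apart, with a change of -1.19 ± 0.26 (SE, adjusted p = 0.0047). The RNA-binding gene caprin2 averaged 91.2 ± 28.6 CPM in high DHA and 224 ± 97.4 CPM in medium DHA (SD, n = 3 each), a change of -1.30 ± 0.26, and Dynlt5-b, a dynein light chain, changed by -1.25 ± 0.36. The rows ywlC, htxA, l-2 and ML1136, whose names are given no role here, fell by 1.71, 1.57, 1.35 and 1.26 on the log2 scale. Without medium DHA replicate 3, ywlC stood at -1.07. Dynlt5-b, htxA and ML1136 did not pass in 3 of the 6 fits that left out 1 library, ywlC in 4.

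All 20 measured sterol synthesis genes had negative log2 fold changes, 10 fell at the threshold (50% against 9.08% of all genes) and none rose, with a median of -0.43 against -0.01 for all genes. The gene dhcr7, whose enzyme completes cholesterol, had 121, 105 and 121 CPM in high DHA libraries, against 169, 202 and 202 CPM in medium DHA libraries. The groups did not overlap, and dhcr7 changed by -0.72 ± 0.15 (SE, adjusted p = 0.004). EBP, a sterol isomerase, had 85.3, 81.7 and 77.2 CPM in high DHA libraries, against 121, 125 and 156 CPM in medium DHA libraries. It fell by the same amount (-0.72 ± 0.17 SE, adjusted p = 0.0084). IDI1, which feeds isoprene units into the pathway, changed by -0.54 ± 0.13 (SE, adjusted p = 0.0089). Also past the threshold were msmo1, Hsd17b7, TM7SF2, PMVK, mvd and Lss, at -0.65 to -0.42. Without medium DHA replicate 3, TM7SF2 stood at -0.354. IDI1 did not pass without high DHA replicate 2, nor msmo1 and TM7SF2 without medium DHA replicate 3 or high DHA replicate 2. Hsd17b7 did not pass in 3 of the 6 fits that left out 1 library, PMVK in 4, mvd and Lss in 5. With the length score 7 sterol synthesis genes fell, and PMVK (adjusted p = 0.2), mvd (adjusted p = 0.092) and Lss (adjusted p = 0.054) did not pass. Leaving out 1 library at a time gave 2 to 9 falls, with 2 without high DHA replicate 2 and 4 without medium DHA replicate 3, while a fit to the 6 libraries alone gave 16.

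Of 12 sterol sensing and uptake genes 4 fell (33.3% against 9.08% of all genes) and 1 rose (8.33% against 7.84%). The median was -0.08. Npc1l1, the cholesterol importer of the brush border, had 199, 165 and 213 CPM in high DHA libraries, against 299.8, 321 and 303 CPM in medium DHA libraries. Its log2 fold change was -0.68 ± 0.15 (SE, adjusted p = 0.0056). Abcg8 and ABCG5, partners in the pump that returns sterols to the gut lumen and bile, changed by -1.03 ± 0.23 (SE, adjusted p = 0.0053) and -0.67 ± 0.17 (SE, adjusted p = 0.011). INSIG2, which holds the sterol sensor in the endoplasmic reticulum, changed by -0.79 ± 0.23 at about 3 to 5 CPM. The rise was Abcg1, which loads cholesterol onto lipoproteins, at 0.30 ± 0.08 (SE, adjusted p = 0.02). ABCG5 did not pass without high DHA replicate 2, nor Abcg1 without medium DHA replicate 3 or high DHA replicate 2. INSIG2 did not pass in 4 of the 6 fits that left out 1 library.

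Of 15 fatty acid and triglyceride synthesis genes 5 fell (33.3% against 9.08% of all genes) and 2 rose (13.3% against 7.84%), with a median of -0.22. ME1, which makes NADPH for lipid synthesis, had 65.4, 57.6 and 75.9 CPM in high DHA libraries, against 111, 129.9 and 104 CPM in medium DHA libraries. Its groups were clearly apart (-0.79 ± 0.13 SE, adjusted p = 0.0014). The elongase gene elovl6, which extends saturated fatty acids, changed by -0.74 ± 0.14 (SE, adjusted p = 0.0024), and PLIN2, a coat protein of lipid droplets, by -0.54 ± 0.12 (SE, adjusted p = 0.0054). The row Elovl6, which differs from elovl6 only in capitals, did not pass (-0.55 ± 0.29 SE, adjusted p = 0.19). Gpam, which starts glycerolipid synthesis, had 119, 126 and 149 CPM in high DHA libraries, against 94.3, 94.4 and 94.4 CPM in medium DHA libraries. All 3 high DHA libraries lay above the closely spaced medium ones, at 0.48 ± 0.09 (SE, adjusted p = 0.0027). Of 8 genes for making long-chain polyunsaturated fatty acids, 1 passed, as lower (12.5% against 9.08% of all genes). It was TECR, the last step of each elongation cycle, at -0.40 ± 0.10 (SE, adjusted p = 0.01). The row Tecr, which differs only in capitals, did not pass (-0.18 ± 0.10 SE, adjusted p = 0.19). The desaturase gene fads2, chosen after its values were seen, stood at -0.30 ± 0.13 (SE, adjusted p = 0.1). TECR did not pass without high DHA replicate 2.

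A list of 19 fatty acid oxidation genes and their regulators had 5 falls (26.3% against 9.08% of all genes) and 1 rise (5.26% against 7.84%). The median was -0.17. The rise was PPARA, the receptor that switches on fat oxidation, with 71.8, 65.2 and 70.1 CPM in high DHA libraries, against 46, 50.7 and 53.2 CPM in medium DHA libraries. It rose by 0.47 ± 0.10 (SE, adjusted p = 0.0054). PPARG, a member of the list known as the receptor of fat storage, was among the falls (-0.58 ± 0.15 SE, adjusted p = 0.011) at 7.02 to 12.9 CPM. Among the enzymes, Echs1 in mitochondria changed by -0.49 ± 0.10 (SE, adjusted p = 0.0043) and decr2 in peroxisomes by -0.37 ± 0.08 (SE, adjusted p = 0.0042). Fitted beside the length score, 3 of these passed as lower and 2 as higher. PPARG did not pass without high DHA replicate 2.

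Of 32 lipid transport genes 5 fell (15.6% against 9.08% of all genes), 2 rose (6.25% against 7.84%) and 25 were not called. The median was -0.21. The gene of the main lipoprotein protein apoa1 had 12230, 9524 and 10620 CPM in high DHA libraries, against 15600, 15250 and 15540 CPM in medium DHA libraries, and changed by -0.52 ± 0.11 (SE, adjusted p = 0.0049). APOO, a lipid-binding protein of the inner mitochondrial membrane, had 17.8, 16.5 and 18.4 CPM in high DHA libraries, against 27.7, 28.9 and 26.7 CPM in medium DHA libraries. Its groups were far apart for their spread (-0.66 ± 0.10 SE, adjusted p = 0.00075). FABP7, the fatty acid binding protein of brain glia, which favours DHA in mammals, changed by -0.50 ± 0.13 (SE, adjusted p = 0.011) and did not pass without high DHA replicate 2, without medium DHA replicate 1 or with the length score. Fabp6, the ileal bile acid binding protein, rose by 0.84 ± 0.21 (SE, adjusted p = 0.011) in 1 row of about 15 to 35 CPM. The far more abundant row FABP6, which differs only in capitals, had 1095, 1029 and 931 CPM in high DHA and 994, 1176 and 1161 CPM in medium DHA (-0.12 ± 0.15 SE, adjusted p = 0.6), and the 2 rows summed gave -0.105. Fabp6 did not pass without high DHA replicate 2. In the fit lacking high DHA replicate 2, 2 transport genes fell and none rose. With the length score 2 fell and 2 rose.

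Phospholipid and eicosanoid genes were mixed. Of 19 phospholipid genes 3 rose (15.8% against 7.84% of all genes) and 1 fell (5.26% against 9.08%). The cytosolic phospholipase gene pla2g4a, which releases polyunsaturated fatty acids from membranes, had 129, 126 and 115 CPM in high DHA libraries, against 76.3, 84.7 and 82 CPM in medium DHA libraries. It rose by 0.61 ± 0.11 (SE, adjusted p = 0.0016). The reacylating enzyme gene lpcat1 rose by 0.69 ± 0.14 (SE, adjusted p = 0.003) and Etnk1, which starts phosphatidylethanolamine synthesis, by 0.54 ± 0.12 (SE, adjusted p = 0.0047), while gpd1, which makes the glycerol backbone, changed by -0.42 ± 0.10 (SE, adjusted p = 0.0089). The row Gpd1, which differs from gpd1 only in capitals, did not pass (-0.18 ± 0.09 SE, adjusted p = 0.17). Of 23 eicosanoid and peroxide defence genes 4 rose (17.4% against 7.84% of all genes) and 6 fell (26.1% against 9.08%). Slc7a11, which imports cystine for glutathione, rose by 0.50 ± 0.09 (SE, adjusted p = 0.0024), and LTA4H, which makes a leukotriene, fell (-0.66 ± 0.14 SE, adjusted p = 0.0047). GPX4, which removes lipid peroxides, changed by -0.41 ± 0.12 and PRDX1 by -0.37 ± 0.10. The row SOD2 rose by 2.17 at 2.07 CPM or less while the abundant row Sod2 fell by 0.26. The remaining rises were Aloxe3 and ALOX12B, which are counted again in the epidermis list below. Leaving out high DHA replicate 2 left 1 fall and 4 rises in the list. PRDX1 did not pass without high DHA replicate 2, nor SOD2 without medium DHA replicate 1. GPX4 did not pass in 4 of the 6 fits that left out 1 library, Sod2 in 5. With the length score 4 eicosanoid and peroxide defence genes rose and 3 fell. GPX4 (adjusted p = 0.13), PRDX1 (adjusted p = 0.072) and Sod2 (adjusted p = 0.17) did not pass in that fit.

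**Figure D2:**
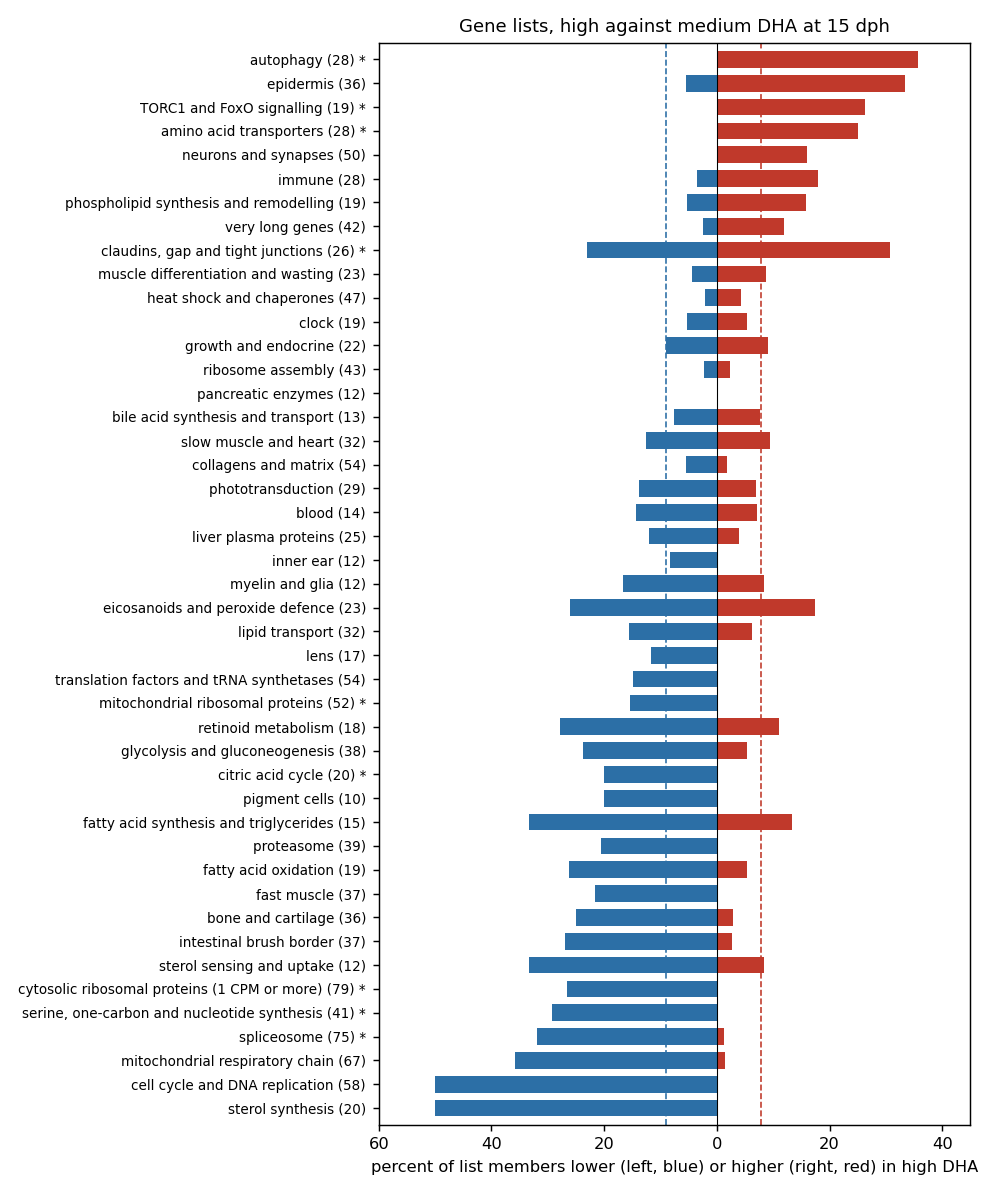
Bars give the percent of each gene list's members that passed as lower (blue, to the left) or higher (red, to the right) in high than in medium DHA at 15 dph, for lists of at least 10 members, with the number tested in brackets. Dashed lines mark the share of all genes, 9.08% lower and 7.84% higher; a star marks lists chosen after values were seen, and sterol synthesis and cell cycle reach 50% lower.

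Of 37 brush border genes of the absorptive gut 10 fell (27.0% against 9.08% of all genes), 1 rose (2.7% against 7.84%) and 26 were not called. The median was -0.31. CLDN15, the pore-forming claudin of intestine, had 59, 60.4 and 76 CPM in high DHA libraries, against 91, 91.8 and 108 CPM in medium DHA libraries. No high DHA library reached the lowest medium one, and CLDN15 changed by -0.58 ± 0.13 (SE, adjusted p = 0.0049). Cdhr5, which links neighbouring microvilli, changed by -1.22 ± 0.29 (SE, adjusted p = 0.0077). Others were FABP2 (-0.57 ± 0.16), ANPEP (-0.40 ± 0.12), SLC2A5 (-0.45 ± 0.12) and MYO7B (-0.57 ± 0.19); the rise was SLC2A2, a glucose transporter also made in liver (0.45 ± 0.15). Summed over the list, levels were 3824, 3593 and 4030 CPM in high DHA, against 4801, 5135 and 4877 CPM in medium DHA libraries. None of 12 pancreatic enzyme genes passed, with CTRL at -0.34 ± 0.14 (SE, adjusted p = 0.097) and Ctrc at -0.22 ± 0.15 (SE, adjusted p = 0.33). Without high DHA replicate 2, 5 brush border genes fell, and without medium replicate 2 or high replicate 1, 6 did. FABP2 did not pass without medium DHA replicate 2 or high DHA replicate 2. SLC2A5 did not pass in 3 of the 6 fits that left out 1 library, ANPEP and MYO7B in 4, SLC2A2 in 6.

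Of 25 liver plasma protein genes 3 fell (12% against 9.08% of all genes) and 1 rose (4% against 7.84%), with a median of -0.23. The iron carrier gene tf had 835, 643 and 773 CPM in high DHA libraries, against 1196, 1013 and 1305 CPM in medium DHA libraries, a change of -0.64 ± 0.16 (SE, adjusted p = 0.0092). FETUB, a fetuin, changed by -0.64 ± 0.17 (SE, adjusted p = 0.014) and VTN, vitronectin, by -0.46 ± 0.14 (SE, adjusted p = 0.033). C3, the central complement protein, rose by 0.55 ± 0.13 (SE, adjusted p = 0.0089). No member fell without high DHA replicate 2 and 8 fell without high DHA replicate 1. With the length score 1 fell and 1 rose. Of 13 bile acid genes 1 rose (7.69% against 7.84% of all genes) and 1 fell (7.69% against 9.08%). The rise was the Fabp6 row above, and CYP8B1, which makes cholic acid, fell (-0.51 ± 0.13 SE, adjusted p = 0.011). tf and FETUB did not pass without high DHA replicate 2, nor C3 without medium DHA replicate 1 or high DHA replicate 3, nor CYP8B1 without medium DHA replicate 1 or high DHA replicate 2. VTN did not pass in 4 of the 6 fits that left out 1 library.

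Of 58 cell cycle and replication genes 57 had negative values, 29 fell (50% against 9.08% of all genes) and none rose, with a median of -0.41. MAD2L1, of the spindle checkpoint, had 15.2, 13.6 and 11.4 CPM in high DHA libraries, against 26.5, 17.9 and 25.5 CPM in medium DHA libraries. The groups did not overlap (-0.80 ± 0.13 SE, adjusted p = 0.0014). The spindle motor gene kif11 had 13.3, 10.4 and 14.1 CPM in high DHA libraries, against 21.1, 19.7 and 21.5 CPM in medium DHA libraries. It changed by -0.72 ± 0.15 (SE, adjusted p = 0.0038), the kinetochore gene nuf2 by -0.66 ± 0.13 (SE, adjusted p = 0.0037), and CDC20, which triggers anaphase, by -0.53 ± 0.11 (SE, adjusted p = 0.0045). Summed over the list, levels were 2036, 1791 and 2039 CPM in high DHA, against 2608, 2439 and 2847 CPM in medium DHA. With the length score 28 fell. Leaving out 1 library gave 10 falls without high DHA replicate 2, 12 without medium replicate 3, 18 without medium replicate 1 and 20 to 30 for the others.

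Tubulins and genes for building blocks of dividing cells form 2 further lists. Both were chosen after values were seen, and tubulin copies are alike enough for reads to be split between rows. Of 8 tubulin rows 6 fell (75% against 9.08% of all genes) and none rose. The falls were led by TUBA1C, with 165, 132 and 167 CPM in high DHA libraries, against 327, 261 and 235 CPM in medium DHA libraries (-0.83 ± 0.16 SE, adjusted p = 0.0024), and Tubb2a (-0.78 ± 0.14 SE, adjusted p = 0.0016). Of 41 serine, one-carbon and nucleotide synthesis genes 12 fell (29.3% against 9.08% of all genes) and none rose, with a median of -0.24. PHGDH and PSAT1, the first 2 enzymes of serine synthesis, changed by -0.66 ± 0.12 (SE, adjusted p = 0.0018) and -0.68 ± 0.12 (SE, adjusted p = 0.0014). PHGDH had 83.2, 67.6 and 76.5 CPM in high DHA libraries, against 121, 113 and 126 CPM in medium DHA libraries. The ribonucleotide reductase gene rrm2 changed by -0.68 ± 0.15 (SE, adjusted p = 0.0053) and NME1, which balances nucleoside triphosphates, by -0.60 ± 0.13 (SE, adjusted p = 0.0051). The count of falls was 5 when high DHA replicate 2 was left out.

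Of 67 nuclear respiratory chain and ATP synthase genes 66 had negative values, with a median of -0.28. In this list 24 fell (35.8% against 9.08% of all genes) and 1 rose (1.49% against 7.84%), sdha at 0.26 ± 0.08. NDUFS3, a core subunit of complex I, had 114, 103 and 110 CPM in high DHA libraries, against 168, 158 and 153 CPM in medium DHA libraries. Its change was -0.55 ± 0.10 (SE, adjusted p = 0.0018). NDUFS5 changed by -0.61 ± 0.13 (SE, adjusted p = 0.0047), Uqcrc1 of complex III by -0.41 ± 0.09 (SE, adjusted p = 0.0043), and ATP5MC3, of the rotor ring of ATP synthase, by -0.43 ± 0.09 (SE, adjusted p = 0.0051). The mitochondrially encoded mt-co1 and MT-ND5 did not pass, at 0.07 ± 0.10 (SE, adjusted p = 0.67) and 0.02 ± 0.11 (SE, adjusted p = 0.9). Of 20 citric acid cycle genes, a list chosen after values were seen, 4 fell (20% against 9.08% of all genes). Among them was Idh3a (-0.33 ± 0.09 SE, adjusted p = 0.022), but none fell without medium DHA replicate 2, high DHA replicate 1 or high DHA replicate 2. sdha did not pass in 4 of the 6 fits that left out 1 library.

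Among 114 rows with cytosolic ribosomal protein names, 79 had a mean of at least 13.9 CPM and 35 a mean of at most 0.356 CPM. Of the 79, 21 fell (26.6% against 9.08% of all genes) and none rose, with a median of -0.29. Among the falls were rpl15, with 1340, 1408 and 1454 CPM in high DHA and 1957, 1960 and 1945 CPM in medium DHA (-0.48 ± 0.12 SE, adjusted p = 0.011), and Rps14 (-0.57 ± 0.14 SE, adjusted p = 0.011). None of the 35 low rows passed. They summed to 2.74, 4.29 and 12.4 CPM in high DHA, against 1.85, 1.11 and 2.05 CPM in medium DHA, and the source of these reads was not tested. None rose and 8 fell in each of 3 lists: 52 mitochondrial ribosomal protein genes (15.4%), 39 proteasome genes (20.5%) and 54 translation factor and tRNA synthetase genes (14.8%), against 9.08% of all genes. Of these lists, that of mitochondrial ribosomal proteins was chosen after values were seen. Examples are MRPL39 (-0.64 ± 0.13 SE, adjusted p = 0.004), the proteasome ATPase PSMC3 (-0.58 ± 0.15 SE, adjusted p = 0.011) and eif4a3 (-0.48 ± 0.10 SE, adjusted p = 0.0043). Of 75 spliceosome genes, also chosen after values were seen, 24 fell (32% against 9.08% of all genes) and 1 rose (1.33% against 7.84%). Among the falls were Snrpa (-0.38 ± 0.09 SE, adjusted p = 0.0067) and SNRPB (-0.53 ± 0.13 SE, adjusted p = 0.011). Only 1 rose (2.33% against 7.84% of all genes) and 1 fell (2.33% against 9.08%) of 43 ribosome assembly genes. DDX21, an RNA helicase of the nucleolus, rose by 0.73 ± 0.16 (SE, adjusted p = 0.0047) and DKC1 changed by -0.39 ± 0.13 (SE, adjusted p = 0.043). Rps14 and SNRPB did not pass without high DHA replicate 2. DKC1 did not pass in 4 of the 6 fits that left out 1 library.

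The counts in these lists moved with the length score, which is itself built from respiratory chain and ribosomal genes. In the fit that included it, 10 respiratory chain genes fell with a median of -0.10, and 3 of the 79 ribosomal genes fell with a median of -0.04. In the same fit no proteasome, 1 mitochondrial ribosomal, 2 translation and 6 spliceosome genes fell. Without high DHA replicate 2, counts of falls were 11 for the respiratory chain, 3 for ribosomal, 2 for proteasome, 1 for mitochondrial ribosomal, 1 for translation and 3 for spliceosome genes. Leaving out any of the 6 libraries gave 3 to 8 ribosomal falls, while fits to the 6 or 9 libraries alone gave 50 and 44.

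Of 37 fast muscle genes 8 fell (21.6% against 9.08% of all genes) and none rose, with a median of -0.19. PGAM2, the muscle form of a glycolytic mutase, had 796, 791 and 747 CPM in high DHA libraries, against 1769, 1603 and 1082 CPM in medium DHA libraries. High DHA libraries were closely spaced below widely spread medium ones (-0.93 ± 0.14 SE, adjusted p = 0.00075). TNNI2 and TNNT3, troponins of fast fibres, changed by -0.52 ± 0.12 (SE, adjusted p = 0.0055) and -0.50 ± 0.11 (SE, adjusted p = 0.0056), and Tmod4, which caps thin filaments, by -0.63 ± 0.11 (SE, adjusted p = 0.0014). Summed over the list, levels overlapped, at 35750, 42590 and 50630 CPM in high DHA and 55890, 63060 and 41010 CPM in medium DHA. Of 38 glycolysis and glycogen genes 9 fell (23.7% against 9.08% of all genes) and 2 rose (5.26% against 7.84%). The isomerase gene tpi1b had 2796, 2768 and 2772 CPM in high DHA and 4786, 4227 and 3413 CPM in medium DHA (-0.58 ± 0.12 SE, adjusted p = 0.004), ENO1 changed by -0.36 ± 0.09 (SE, adjusted p = 0.012), and GYS2, the liver glycogen synthase, rose by 0.62 ± 0.15 (SE, adjusted p = 0.0072). Without high DHA replicate 2 or medium replicate 1, 2 and 3 glycolysis genes fell. ENO1 did not pass without medium DHA replicate 1 or high DHA replicate 2.

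Slow muscle and heart genes did not move together, with 3 higher (9.38% against 7.84% of all genes) and 4 lower (12.5% against 9.08%) of 32. TNNT1, slow troponin T, had 22.4, 24 and 22.3 CPM in high DHA libraries, against 32.9, 35.3 and 32.7 CPM in medium DHA libraries (-0.55 ± 0.11 SE, adjusted p = 0.0031), and CASQ2, which stores calcium in heart and slow fibres, changed by -0.38 ± 0.08 (SE, adjusted p = 0.0044). XIRP2, an actin-binding protein of cell junctions in muscle, rose by 0.55 ± 0.16 (SE, adjusted p = 0.02). The row Myh7 rose by 0.44 ± 0.10 (SE, adjusted p = 0.0049), but the more abundant row MYH7, which differs only in capitals, stood at 0.00 ± 0.15. Of 23 genes of muscle differentiation and wasting 2 rose (8.7% against 7.84% of all genes) and 1 fell (4.35% against 9.08%). FOXO3, which drives atrophy programmes, rose by 0.48 ± 0.11 (SE, adjusted p = 0.0072), mef2d by 0.90 ± 0.23 (SE, adjusted p = 0.011), and TRIM55, a ligase of the sarcomere, fell (-0.78 ± 0.13 SE, adjusted p = 0.0012). FOXO3 did not pass without high DHA replicate 2, nor mef2d without high DHA replicate 3. XIRP2 did not pass in 3 of the 6 fits that left out 1 library.

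Of 36 bone and cartilage genes 9 fell (25% against 9.08% of all genes), 1 rose (2.78% against 7.84%) and 26 were not called. The median was -0.37. COL10A1, the collagen of hypertrophic cartilage and, in fish, of bone-forming cells, had 714, 671 and 703 CPM in high DHA libraries, against 1326, 1080 and 1004 CPM in medium DHA libraries. The groups did not overlap (-0.71 ± 0.15 SE, adjusted p = 0.0049). Postn, a matrix protein of periosteum, had 119, 86.7 and 106 CPM in high DHA libraries, against 178, 154 and 176 CPM in medium DHA libraries. It changed by -0.70 ± 0.12 (SE, adjusted p = 0.0014), the collagen-repeat gene Cthrc1 by -0.69 ± 0.16 (SE, adjusted p = 0.0064) and COL9A1 of cartilage fibrils by -0.62 ± 0.15 (SE, adjusted p = 0.0084). SCIN, an actin-severing protein, rose by 0.48 ± 0.12. Of 54 collagen and matrix genes 3 fell and 1 rose, below both background shares. P4HA1, which hydroxylates collagen, changed by -0.42 ± 0.09 (SE, adjusted p = 0.0037), HSPG2 by -0.59 ± 0.15 (SE, adjusted p = 0.0092) and TGFBI by -0.49 ± 0.16 (SE, adjusted p = 0.043), while fbln1 rose by 0.57 ± 0.13 (SE, adjusted p = 0.0051). With the length score 12 skeletal and 14 matrix genes fell, and without high DHA replicate 2, 3 and 1 did. Without high DHA replicate 3, TGFBI stood at -0.742. COL9A1, HSPG2 and fbln1 did not pass without high DHA replicate 2, nor SCIN without medium DHA replicate 1 or high DHA replicate 2. TGFBI did not pass in 4 of the 6 fits that left out 1 library.

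Of 50 neuron and synapse genes 42 had positive values, 8 rose (16% against 7.84% of all genes) and none fell, with a median of 0.17. PCLO, a scaffold of the presynaptic active zone, had 211, 224 and 217 CPM in high DHA libraries, against 136, 146 and 165 CPM in medium DHA libraries. It rose by 0.54 ± 0.11 (SE, adjusted p = 0.0028). The adhesion gene nrxn1a rose by 0.41 ± 0.09 (SE, adjusted p = 0.0052), the GABA receptor subunit GABRA2 by 0.35 ± 0.09 (SE, adjusted p = 0.0091) and the glutamate receptor subunit Grin2a by 0.39 ± 0.10 (SE, adjusted p = 0.012). Many neuron genes are long, and the length score is itself built in part from very long genes, PCLO among them. With the score 3 neuron genes rose and the median was -0.11, but that fit is not an independent check of them. Leaving out 1 library gave 3 to 9 rises, with 3 without medium DHA replicate 2 and 4 without high DHA replicate 2. Of 42 very long genes 5 rose (11.9% against 7.84% of all genes) and 1 fell (2.38% against 9.08%). The rises were led by PCLO, AHNAK (0.47 ± 0.12 SE, adjusted p = 0.0089) and CSMD1 (0.44 ± 0.11 SE, adjusted p = 0.009). Grin2a did not pass without medium DHA replicate 2 or high DHA replicate 3.

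Of 12 myelin and glia genes 1 rose (8.33% against 7.84% of all genes) and 2 fell (16.7% against 9.08%). MBP, the myelin basic protein, had 107, 118 and 103 CPM in high DHA libraries, against 70.8, 69.2 and 75.8 CPM in medium DHA libraries. It rose by 0.60 ± 0.11 (SE, adjusted p = 0.0017) and kept a value of 0.58 with the length score, while MOG, a protein of the outer myelin sheath, fell (-0.85 ± 0.29 SE, adjusted p = 0.048) at under 10 CPM. Of 29 phototransduction genes 2 rose (6.9% against 7.84% of all genes) and 4 fell (13.8% against 9.08%). None passed without high DHA replicate 2 or with the length score. The called genes included Cnga3, the cone channel (0.31 ± 0.09 SE, adjusted p = 0.026), IMPG1 of the matrix between photoreceptors (0.46 ± 0.14 SE, adjusted p = 0.029), and the retinal reductase rows RDH12 (-0.35 ± 0.10 SE, adjusted p = 0.026) and Rdh12 (-0.53 ± 0.14 SE, adjusted p = 0.015). Of 17 lens genes 16 had negative values and 2 fell (11.8% against 9.08% of all genes). These were GJA3, a lens connexin (-0.43 ± 0.09 SE, adjusted p = 0.0037), and crygnb, a crystallin (-0.72 ± 0.24 SE, adjusted p = 0.04). Of 12 inner ear genes 1 fell (8.33% against 9.08% of all genes), Zpld1 (-0.90 ± 0.29 SE, adjusted p = 0.04). RDH12 and Rdh12 did not pass in 3 of the 6 fits that left out 1 library, MOG, Cnga3 and IMPG1 in 4, crygnb and Zpld1 in 5.

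Of 36 epidermis genes 12 rose (33.3% against 7.84% of all genes), 2 fell (5.56% against 9.08%) and 22 were not called. The median was 0.28. Evpl and PPL, which build the cornified envelope in mammals, had 276, 246 and 259.7 CPM in high DHA libraries, against 195, 186 and 162 CPM in medium DHA libraries (Evpl) and rises of 0.52 ± 0.10 (SE, adjusted p = 0.0033) and 0.44 ± 0.09 (SE, adjusted p = 0.0047). GRHL1, a transcription factor of epidermal barrier, had 111, 106 and 76.8 CPM in high DHA libraries, against 62.6, 57.9 and 67 CPM in medium DHA libraries. It rose by 0.65 ± 0.13 (SE, adjusted p = 0.0035). Aloxe3 and ALOX12B, lipoxygenases that in mammals process barrier lipids, rose by 0.71 ± 0.15 (SE, adjusted p = 0.0043) and 2.94 ± 0.67 (SE, adjusted p = 0.0057). ALOX12B was rare, with 9.85, 11 and 2.86 CPM in high DHA libraries, against 0.636, 0.917 and 1.5 CPM in medium DHA libraries. S100A6 (0.93 ± 0.21) and the second grainyhead factor grhl2 (0.72 ± 0.17), both chosen after values were seen, also rose. The 2 genes that fell are not reported by name here, and values in the list ran from -1.49 to 2.94. Summed over the list, levels were 15220, 13580 and 15320 CPM in high DHA, against 15680, 16720 and 15180 CPM in medium DHA, which overlap. Without high DHA replicate 2 or medium replicate 1, 8 rose in each fit, and with the length score 11 did. grhl2 did not pass without high DHA replicate 1.

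Junction genes split in both directions, in a list of 26 chosen after values were seen. Of these, 8 were higher (30.8% against 7.84% of all genes) and 6 lower (23.1% against 9.08%). PARD6A, of the polarity complex, rose by 0.66 ± 0.12 (SE, adjusted p = 0.0016) and cgn, cingulin of tight junctions, by 0.57 ± 0.13 (SE, adjusted p = 0.0055). Among claudins, Cldn18 changed by -1.12 ± 0.26 and CLDN10 by 1.49 ± 0.43. The rows CLDN4 and Cldn4, which differ only in capitals, changed by 0.53 ± 0.14 and -0.55 ± 0.19. The fit lacking high DHA replicate 2 gave 2 rises and 3 falls among junction genes. Of 10 pigment cell genes 2 fell (20% against 9.08% of all genes). These were Tyr, the melanin enzyme (-0.72 ± 0.20 SE, adjusted p = 0.019), and GART, a purine synthesis enzyme (-0.57 ± 0.15 SE, adjusted p = 0.014). No pigment cell gene fell without high DHA replicate 2, in the 9 libraries of 15 dph alone or with the replicate block. CLDN4 did not pass without medium DHA replicate 1 or high DHA replicate 2, nor GART without high DHA replicate 1 or high DHA replicate 2. CLDN10 and Tyr did not pass in 3 of the 6 fits that left out 1 library, Cldn4 in 5.

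The lists of autophagy genes, of nutrient signalling genes and of amino acid transporters were chosen after values were seen. Of 28 autophagy genes 10 rose (35.7% against 7.84% of all genes), none fell and 18 were not called, with a median of 0.30. Map1lc3b, which coats the autophagosome, had 108, 148 and 84.4 CPM in high DHA libraries, against 68.2, 66.2 and 71.5 CPM in medium DHA libraries. The groups did not overlap, and high DHA replicate 2 was highest (0.73 ± 0.18 SE, adjusted p = 0.0098). Without that library Map1lc3b stood at 0.482 and did not pass. Gabarapl2, of the same family, rose by 0.57 ± 0.10 (SE, adjusted p = 0.0017), the cargo receptor TAX1BP1 by 0.82 ± 0.19 (SE, adjusted p = 0.0077) and the lipid phosphatase MTMR14 by 0.85 ± 0.15 (SE, adjusted p = 0.0017). Without high DHA replicate 2, 3 rose, and without medium replicate 1 or 2 or high replicate 1, 6 rose in each fit. TAX1BP1 did not pass without high DHA replicate 2.

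Of 19 genes around TORC1, the growth kinase complex that senses amino acids, and FoxO factors, 5 rose (26.3% against 7.84% of all genes), none fell and 14 were not called. Castor2, an arginine sensor family member that restrains TORC1, had 18.9, 22 and 20.3 CPM in high DHA libraries, against 11.5, 9.43 and 12.8 CPM in medium DHA libraries. It rose by 0.86 ± 0.15 (SE, adjusted p = 0.0016). TSC1, of the complex that switches TORC1 off, had 96.2, 145 and 202 CPM in high DHA libraries, against 73, 96.8 and 62.7 CPM in medium DHA libraries, with wide spread in high DHA (0.93 ± 0.22 SE, adjusted p = 0.0068). Foxo4, a factor active when insulin is low, had 28, 35 and 37 CPM in high DHA libraries, against 17.3, 15.9 and 21.1 CPM in medium DHA libraries. It rose by 0.88 ± 0.15 (SE, adjusted p = 0.0016). The fit lacking high DHA replicate 2 gave 3 rises. Of 28 amino acid transporter genes 7 rose (25% against 7.84% of all genes) and none fell, though the median was 0.04. Slc43a1, a leucine carrier related to SLC43A2, had 64.4, 96.7 and 65.7 CPM in high DHA libraries, against 48.4, 40.6 and 40 CPM in medium DHA libraries and rose by 0.81 ± 0.16 (SE, adjusted p = 0.003). SLC6A17, a neutral amino acid carrier of synaptic vesicles, rose by 0.63 ± 0.13 (SE, adjusted p = 0.0039).

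**Figure D3:**
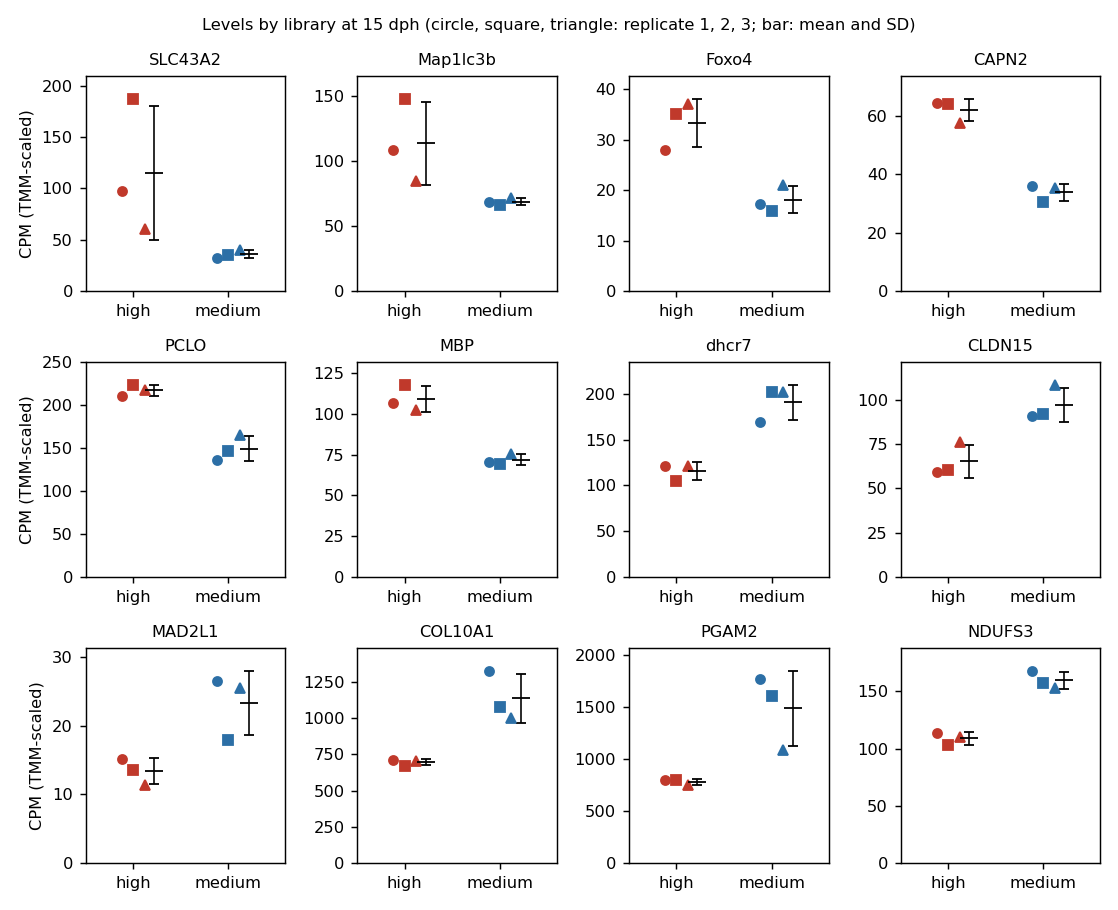
TMM-scaled CPM of 12 genes in each 15 dph library, with the 3 high DHA libraries (red) to the left of the 3 medium DHA libraries (blue) and the mean and SD beside them; the vertical axes start at 0. The 12 were picked from the 1234 changed genes, of which 1179 do not overlap between groups, against 39.9% of all genes tested. None of the 12 overlaps, and replicate 2 (square) is the highest high DHA library for SLC43A2 (187 CPM) and Map1lc3b (148 CPM).

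Of 28 immune genes 5 rose (17.9% against 7.84% of all genes) and 1 fell (3.57% against 9.08%). HELZ2, a helicase induced by interferon in mammals, had 60.5, 52.1 and 37.1 CPM in high DHA libraries, against 33.1, 21.6 and 23.8 CPM in medium DHA libraries and rose by 0.93 ± 0.18 (SE, adjusted p = 0.0026). Ccl25 and Ccr9 are a gut and thymus chemokine and its receptor: Ccl25 rose by 0.53 ± 0.14 (SE, adjusted p = 0.012), while Ccr9, at 0.727 to 2.36 CPM, fell (-1.21 ± 0.26 SE, adjusted p = 0.0049). The other rises were TRIM16, Trim25 and Tnfsf15 (0.74 ± 0.25), and 1 gene rose without high DHA replicate 2. Of 14 blood genes 1 rose (7.14% against 7.84% of all genes) and 2 fell (14.3% against 9.08%). EPB41, of the red cell skeleton, rose (0.56 ± 0.16 SE, adjusted p = 0.023) and ALAD, of heme synthesis, was among those that fell (-0.39 ± 0.10 SE, adjusted p = 0.011). Among 22 hormone and growth factor genes, 2 were called in each direction (9.09% each, against 7.84% higher and 9.08% lower of all genes). The insulin gene ins had 15.3, 12.9 and 13.4 CPM in high DHA libraries, against 17.2, 21.6 and 19.7 CPM in medium DHA libraries. It fell (-0.49 ± 0.12 SE, adjusted p = 0.011), and Igf1r, the receptor of insulin-like growth factors, rose by 0.55 ± 0.17 (SE, adjusted p = 0.028). Igfbp7 changed by -0.64 ± 0.18 (SE, adjusted p = 0.017), and igf2bp1, which binds growth factor mRNA, rose by 0.43 ± 0.10 (SE, adjusted p = 0.0084). BMAL1 rose (0.53 ± 0.16 SE, adjusted p = 0.029) and NR1D2, which represses it, fell (-0.48 ± 0.16 SE, adjusted p = 0.036), among 19 clock genes. That is 5.26% in each direction, against 7.84% higher and 9.08% lower of all genes. Both BMAL1 and NR1D2 were lost in 5 of 6 fits that left out 1 library. Of 47 heat shock genes 2 rose (4.26% against 7.84% of all genes) and 1 fell (2.13% against 9.08%). DNAJB9 (1.38 ± 0.38 SE, adjusted p = 0.017) and HSPB7 (0.38 ± 0.13 SE, adjusted p = 0.042) rose and hspe1 fell (-0.46 ± 0.14 SE, adjusted p = 0.03). HSPB7 stood at 0.234 without high DHA replicate 2, and without medium DHA replicate 1, Igfbp7 stood at -0.411. Ccl25 and ALAD did not pass without high DHA replicate 2, nor ins without medium DHA replicate 2 or high DHA replicate 2, nor igf2bp1 without medium DHA replicate 1 or high DHA replicate 3. Igfbp7 did not pass in 3 of the 6 fits that left out 1 library, EPB41, Igf1r and DNAJB9 in 4, Tnfsf15, HSPB7 and hspe1 in 5.

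Retinoid genes included one of the widest gaps, that of BCO1 described above. Of 18 retinoid genes 5 fell (27.8% against 9.08% of all genes) and 2 rose (11.1% against 7.84%). ALDH1A2, which makes retinoic acid, had 172, 168 and 186 CPM in high DHA libraries, against 223, 238 and 222 CPM in medium DHA libraries. It changed by -0.38 ± 0.09 (SE, adjusted p = 0.0092). The retinoic acid degrading gene cyp26b1 rose by 0.63 ± 0.16 (SE, adjusted p = 0.012), and Rbp7, a retinol binding protein, by 0.85 ± 0.18 (SE, adjusted p = 0.0039). Rbp2, which carries retinol in enterocytes, fell (-0.56 ± 0.16), as did the rows CRABP1 and crabp1 (-0.47 ± 0.13 and -0.32 ± 0.11). With high DHA replicate 2 left out, 2 fell. ALDH1A2 did not pass without high DHA replicate 2, nor cyp26b1 without high DHA replicate 3, nor Rbp2 without medium DHA replicate 2 or high DHA replicate 2, nor CRABP1 without medium DHA replicate 1 or high DHA replicate 3. crabp1 did not pass in 5 of the 6 fits that left out 1 library.

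The same comparison at 10 dph called 10 of 7292 genes (0.137%), 4 higher (0.0549%) and 6 lower (0.0823%), with 1222 at an unadjusted p under 0.05, and 1 gene passed at both ages. Whether the high to medium difference itself changed between ages was tested as 15 minus 10 dph. It changed in 1296 genes (17.8%), being more positive at 15 dph in 655 (8.98%) and more negative in 641 (8.79%), and 818 of these also passed at 15 dph. Whether larvae of the 2 ages came from the same tanks is not stated in the labels. CAPN2, a calcium-activated protease, had 64.3, 64.1 and 57.5 CPM in high DHA libraries, against 35.8, 30.5 and 35.1 CPM in medium DHA libraries at 15 dph. Its difference was 0.87 ± 0.10 at 15 dph and -0.43 ± 0.10 at 10 dph, a change of 1.30 ± 0.15 (SE, adjusted p = 4.5e-05). The 10 dph difference of CAPN2 did not pass on its own. PRODH, which starts proline breakdown, changed by 1.09 ± 0.13 (SE, adjusted p = 7.7e-05) between ages, and the rows VWA5A and Vwa5a by 1.17 ± 0.17 and 1.33 ± 0.20. The row pssA did not pass at 15 dph (0.28 ± 0.18) but stood at -1.48 ± 0.18 at 10 dph, a change of 1.76 ± 0.25 (SE, adjusted p = 0.00041).

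In the other direction, PGAM2 moved most by size among the 5 genes with the smallest p, with a difference of 0.47 ± 0.14 at 10 dph and a change of -1.40 ± 0.20 (SE, adjusted p = 0.00041). Its 10 dph difference did not pass on its own. BLVRB, which reduces biliverdin and flavins, had 26.7, 27.7 and 28.2 CPM in high DHA libraries, against 52.2, 56.1 and 55.3 CPM in medium DHA libraries at 15 dph, and its difference changed by -1.28 ± 0.18 (SE, adjusted p = 0.00041). HRC, a calcium-binding protein of muscle stores, changed by -1.34 ± 0.18 (SE, adjusted p = 0.00023), ADPRH, which removes ADP-ribose from arginine, by -1.23 ± 0.17 (SE, adjusted p = 0.00039) and the mitotic kinase gene pbk by -1.27 ± 0.18 (SE, adjusted p = 0.00041).

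Several lists held more members whose difference changed between the ages than the 8.98% more positive and 8.79% more negative among all genes. Cell cycle genes had a median of -0.41 at 15 dph and 0.29 at 10 dph, and the difference became more negative in 38 of 58 and more positive in none. Bone and cartilage genes had medians of -0.37 and 0.43, with 20 of 36 more negative and 1 more positive. Collagen and matrix genes had medians of -0.18 and 0.35, with 17 of 54 more negative and 2 more positive. Neuron genes had medians of 0.17 and -0.31, 9 of 50 more positive and 2 more negative. Sterol synthesis genes had medians of -0.43 and 0.02, and 7 of 20 became more negative. Epidermis genes had medians of 0.28 and -0.12, with 9 of 36 more positive and 2 more negative. For brush border genes these were -0.31 and 0.12, with 8 of 37 more negative, and for autophagy genes 0.30 and -0.14, with 9 of 28 more positive. At 10 dph itself no member of these lists passed, except 1 of the 54 collagen and matrix genes, which was lower. The 10 dph medians thus describe differences that did not pass gene by gene. The change between ages was not fitted with the length score. At 10 dph that score was -3.69, -3.7 and -4.06 in high DHA, against -3.58, -3.89 and -3.54 in medium DHA. With the score, 15 dph medians were -0.11 for neuron, -0.44 for cell cycle and -0.49 for bone and cartilage genes.

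**Figure D4:**
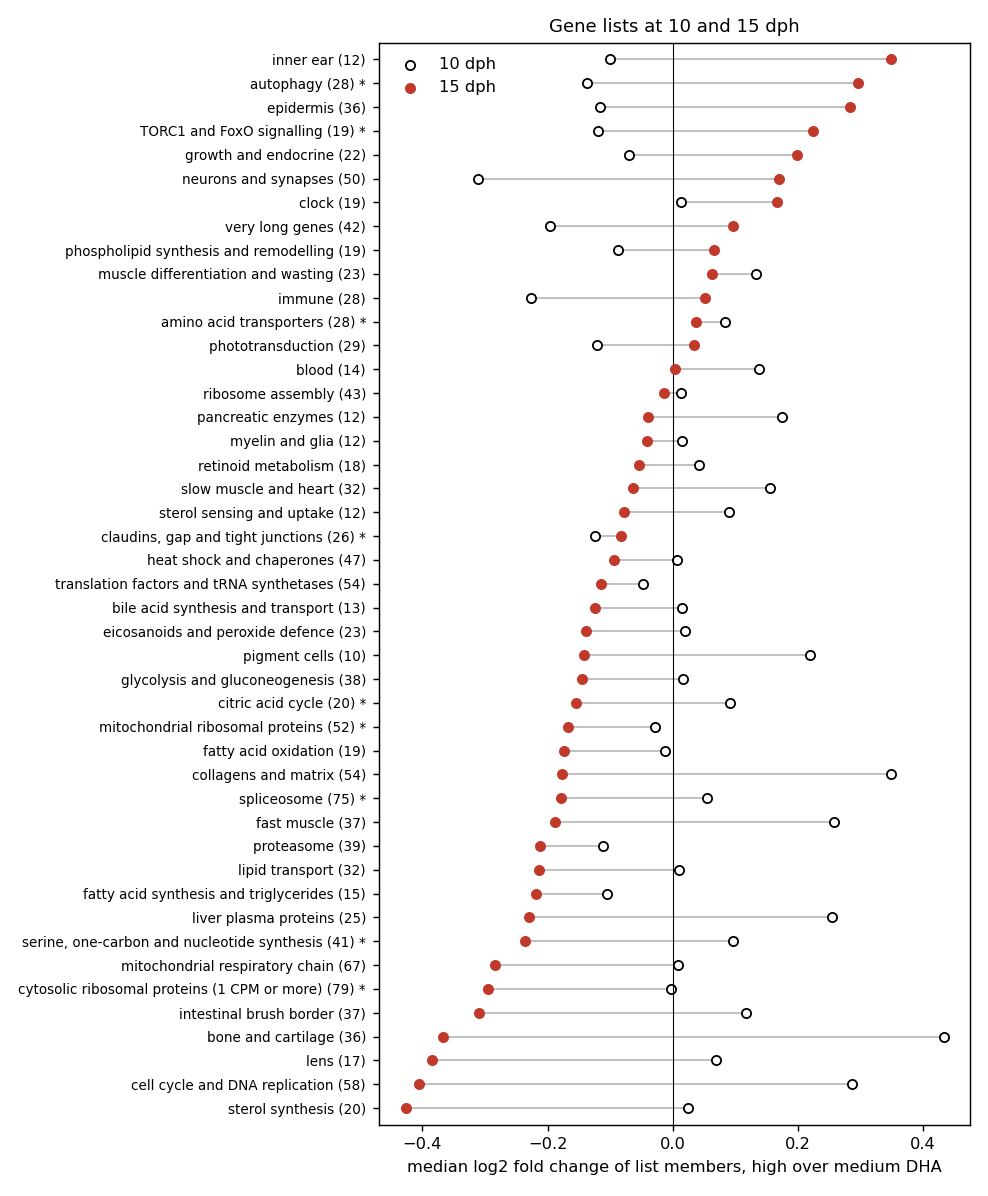
For each gene list of at least 10 members (number tested in brackets), the median log2 fold change of high over medium DHA is shown at 10 dph (open circles) and 15 dph (red circles); a star marks lists chosen after values were seen. Cell cycle genes stand at 0.29 at 10 dph and -0.41 at 15 dph, bone and cartilage genes at 0.43 and -0.37, and neuron genes at -0.31 and 0.17. No cell cycle, bone and cartilage or neuron gene passed at 10 dph. All medians are from the fit without the length score.

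Low DHA larvae of 15 dph place these differences on the 3-step diet scale. Comparisons with low DHA share libraries with the one described here, so each is given only by its own values. Medium against low DHA gave 5 changed genes (0.0686%), 2 higher (0.0274%) and 3 lower (0.0411%). High against low DHA gave 544 (7.46%), 218 higher (2.99%) and 326 lower (4.47%). IDI1 levels averaged 378 ± 49.7 CPM with low DHA, 284 ± 17.4 CPM with medium DHA and 196 ± 24 CPM with high DHA (SD, n = 3 each). Its difference between medium and low DHA did not pass (adjusted p = 0.34), while that between high and low DHA did (adjusted p = 0.00032). Of the 20 sterol genes 17 were lower in high than in low DHA (median -0.61), and none passed between medium and low DHA (median -0.19). Aloxe3 had mean levels of 16.3 ± 1.69 CPM for low, 25.1 ± 2.78 CPM for medium and 41.2 ± 5.55 CPM for high DHA. It passed between high and low DHA (adjusted p = 3.8e-05) but not between medium and low DHA (adjusted p = 0.21). Of 36 epidermis genes 16 were higher in high than in low DHA. Cell cycle genes fell in high against low DHA in 16 of 58, with a median of 0.06 for medium over low. Other genes had their highest mean level in medium DHA. The only 2 genes that passed as higher in medium than in low DHA were both in the epidermis list. BLVRB averaged 36.8 ± 2.54 CPM for low, 54.6 ± 2.09 CPM for medium and 27.5 ± 0.749 CPM for high DHA, and medium against low DHA did not pass for it. APOO gave 21.5 ± 0.503, 27.8 ± 1.08 and 17.6 ± 0.966 CPM along the same order. For APOO neither medium against low DHA (adjusted p = 0.23) nor high against low DHA (adjusted p = 0.083) passed. Respiratory chain genes passed in 2 of 67 between high and low DHA, with medians of -0.20 for high over low and 0.08 for medium over low. The length score of low DHA libraries, -3.27 ± 0.04, lay between those of the other groups.

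**Figure D5:**
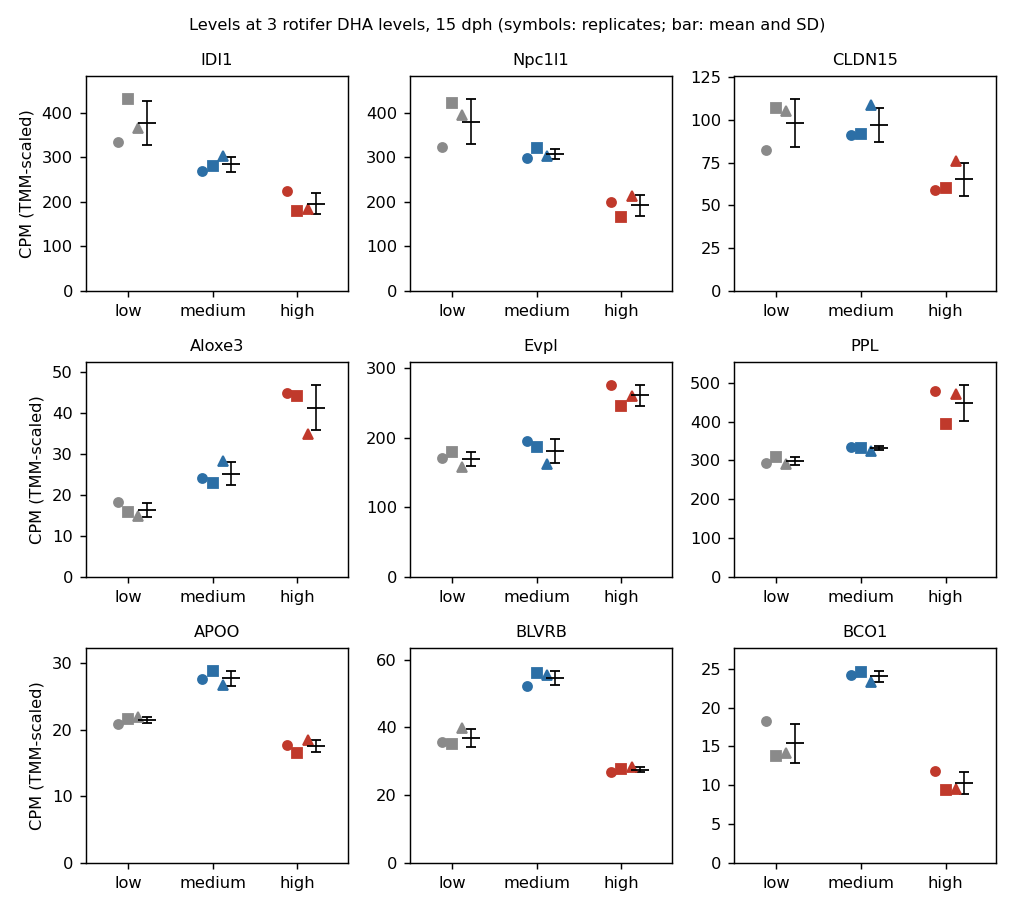
TMM-scaled CPM of 9 genes at 15 dph in low, medium and high DHA libraries (3 each, ordered by rotifer DHA), with mean and SD; the vertical axes start at 0. By mean, IDI1, Npc1l1 and CLDN15 are lowest in high DHA, Aloxe3, Evpl and PPL are highest there, and APOO, BLVRB and BCO1 are highest in medium DHA. Medium against low DHA did not pass for IDI1, Npc1l1, CLDN15, Aloxe3, APOO, BLVRB or BCO1. The only 2 genes that passed as higher in medium than in low DHA were both in the epidermis list.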

How the data were processed

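The deposited table holds raw read counts per gene, whole numbers for 7295 rows and 26 libraries. Per the labels' protocols, RNA was extracted with TRI reagent and made into TruSeq RNA libraries. DESeq2 is named, with no version, in the submitters' processing notes. Which aligner, counter, genome build and gene annotation were used is not given in the sources used here. Another 4 samples, internal controls, were not analysed here, and 1 sample of 5 dph has a number in its treatment label that differs from its title, whose number was used. Rows whose names differ only in capitals (916 rows under 454 names) were kept apart, and 18 rows have counts identical to another row.

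Counts of all 26 libraries in 9 groups were fitted with edgeR 4.0.16 in R 4.3.3, after its filter on low counts, with TMM factors, robust quasi-likelihood dispersions and Benjamini-Hochberg adjustment at 0.05. The script was tested on simulated data. Alternatives were other scalings, filters and library subsets, leaving out each library, a length score covariate, a replicate block and DESeq2 1.42.0. Genes named by size were the 12 that rose most and the 12 that fell most past the threshold with a mean of at least 5 CPM and no overlap, up to 4 members of each list with the smallest p (2 where none passed), and 5 genes per direction for the change between ages. Outside that rule, and chosen after their values were seen, were ANPEP, CLDN10, CLDN4, Cldn18, Cldn4, CRABP1, crabp1, Elovl6, FABP2, FABP6, GPX4, Gpd1, INSIG2, MYH7, MYO7B, PRDX1, Rbp2, S100A6, SCIN, SLC2A2, SLC2A5, SOD2, Sod2, Tecr, Tnfsf15, fads2, grhl2, sdha and the last 6 sterol genes listed. The comparison, the 39 gene lists and the tests were chosen with earlier results of these data known, and 9 further lists and the 1 CPM split of ribosomal rows after values were seen. Same-numbered libraries were not treated as pairs. Some members of the lists are counted but not reported by name here. Some genes, such as Fabp6, Aloxe3 and ALOX12B, are counted in more than 1 list, so lists are not independent.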

Additional observations from a re-analysis of the deposited data

Results flagged for a closer look

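The high to medium DHA difference was not the same at 15 and 10 dph for 24 of the 34 genes named for their size or their change between ages. Each of these passed the test of the difference between ages (15 minus 10 dph, edgeR quasi-likelihood test with Benjamini-Hochberg adjustment over all genes), and values here are on the log2 scale. Among genes with the largest rises at 15 dph, the difference was more positive at 15 dph by 2.12 for MLIP, 2.00 for Retreg1, 1.96 for SLC43A2, 1.61 for SLC2A11, 1.55 for NUFIP2, 1.43 for slc7a6, 1.43 for S100A3, 1.19 for RBL2 and 1.11 for Dedd. Among genes with the largest falls, it changed by -2.10 for htxA, -2.04 for Txnip, -1.61 for BCO1, -1.61 for l-2 and -1.20 for caprin2. Genes chosen for this change itself gave 1.76 for pssA, 1.33 for Vwa5a, 1.30 for CAPN2, 1.17 for VWA5A and 1.09 for PRODH. In the other direction they gave -1.40 for PGAM2, -1.34 for HRC, -1.28 for BLVRB, -1.27 for pbk and -1.23 for ADPRH. These last 10 were selected by this test, so their values describe the selection. Of 152 genes named in lists alone, 113 passed the same test. The list genes and the largest rises and falls were chosen by their 15 dph values. Those values are part of the test between ages, so passing was favoured by the choice. For scale, 818 of all 1234 genes changed at 15 dph passed it, and 17.8% of all genes tested did.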

How the results depend on the processing

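At 15 dph, leaving out 1 library gave 439 to 1005 changed genes, 239 to 517 higher and 200 to 518 lower. Counts moved by over 1.5 times without high DHA replicate 2 (439), medium DHA replicate 1 (716) or 2 (755), and for lower genes without medium DHA replicate 3 (438). Of the 439 genes called without high DHA replicate 2, 435 were among the 1234. For the change between ages, leaving out 1 library gave 771 to 1347 changed genes, 386 to 711 higher and 385 to 694 lower. The counts that moved by over 1.5 times were 771 without high 15 dph replicate 2, 822 without medium 15 dph replicate 2, 853 without high 10 dph replicate 3, and 409 lower without high 10 dph replicate 1. The length score gap ranged from 0.402 to 0.495. The length score as covariate gave 379 higher genes, and it changed the sign of 10 of 49 list medians. Among genes named at 15 dph, leaving aside Elovl6, Gpd1 and Tecr, 56 no longer passed with it. Another 150 kept their sign and their side of the threshold, which includes genes that passed in neither fit, 1 passed newly and 1 changed sign. A replicate block in the 6 libraries gave 728 changed genes (374 higher and 354 lower, 658 of them among the 1234). The same 6 libraries without the block gave 1361. With the block, 50 of the same named genes no longer passed. Falls then numbered 14 for cell cycle, 12 for spliceosome and 0 for citric acid cycle genes, against 29, 24 and 4 in the main fit. Falls of ribosomal protein genes went the other way, at 29 against 21. Same-numbered libraries correlated at 0.14, 0.05 and -0.24 in their deviations. Such values from 3 libraries per group cannot show whether the numbers pair the samples, and the labels do not say. DESeq2's Wald test gave 1446 changed genes, and the fit without 2 libraries of other groups with low length scores, chosen after seeing the data, gave 1627. MT-ND5 turned to -0.0242 with upper-quartile scaling and ranged from -0.0125 to 0.0634 when 1 library was left out, below 0 without medium replicate 1 or high replicate 2. MYH7, close to 0, turned to -0.00536 with DESeq2 size factors, -0.0466 with upper-quartile scaling, -0.000454 with at least 5 CPM, -0.0103 in the 9 libraries of 15 dph, -0.0255 with the block, -0.00537 by DESeq2, -0.00658 without those 2 libraries, and ranged from -0.217 to 0.133 when 1 library was left out. FABP6 turned to 0.116 with the length score. With capital variants summed, Fabp6 turned to -0.105, CLDN4 to -0.114 and SOD2 to -0.233. The causes of these shifts were not tested. Depth, at 15149303 counts or more per library, left 78 changed genes under 5 CPM.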
